A study of Homo sapiens with 6 samples.

Results

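Lysosomal hydrolases and their activators were followed here as 39 genes, fixed by name, among the 58735 genes of a messenger RNA sequencing experiment on AZ-521 cells. They comprise 12 genes for glycosidases and the related amidase AGA, 5 for sulfatases, 6 for lipid-degrading enzymes, 10 for cysteine cathepsins and legumain, 4 for serine and aspartic proteases and 2 for activator proteins that have no enzyme activity of their own. Each of the 39 names was found once in the deposited table. The treated samples were 3, labelled WT, that had received 10 µM platycodon D (PD), a saponin from the root of the balloon flower, for 48 h, and they were set against 3, also labelled WT, given the solvent DMSO for the same time. All came from the same established line. The labels call it gastric, while cell banks list it as derived from a duodenal carcinoma. Markers of both origins were low: the 7 gastric markers summed to between 0.334 and 0.788 FPKM in PD and between 0.416 and 0.762 FPKM in DMSO, with TFF1, TFF2 and GKN1 at 0, and the 5 general epithelial ones to between 0.345 and 0.471 FPKM in PD and between 0.425 and 0.63 FPKM in DMSO, with KRT18 and KRT19 at 0. Of the 4 intestinal markers CDX2 averaged 1.18 FPKM in PD and 1.27 FPKM in DMSO, CDX1 was at 0, and VIL1 and CDH17 reached at most 0.047 and 0.0167 FPKM. Of 5 mesenchymal markers VIM averaged 78.04 FPKM in PD and 102.3 FPKM in DMSO, and THY1 5.743 and 6.957 FPKM. The other mesenchymal markers, COL1A1, COL1A2 and PDGFRB, reached at most 0.7825, 0.0292 and 0.164 FPKM.

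Lysosomes break down polymers and lipids that reach them by endocytosis and autophagy. Their soluble enzymes work in acid, are made on the endoplasmic reticulum, receive a mannose 6-phosphate tag in the Golgi and are carried onward by receptors that bind this tag. Sphingolipids with short sugar chains lie too close to the membrane for the enzymes to reach, and saposins and the GM2 activator lift or expose them. Inherited loss of single members causes lysosomal storage diseases. Many of the genes carry short promoter elements, called CLEAR elements, that bind the MiT/TFE transcription factors.

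Reads over genes numbered between 14915538 and 16341687 per sample, and values are FPKM, fragments per kilobase of gene length scaled to the size of the library. Changes are differences of log2(FPKM + 1), PD minus DMSO, so those of genes near 1 FPKM are understated. "Rose" and "fell" mean an adjusted p under 0.05 in limma over all 13579 genes that reached 1 FPKM in at least 3 samples. Separate cultures are not documented for the replicates, and the p-values then describe only the spread between these samples. In bulk RNA, fewer cells with a transcript and less of it per cell cannot be told apart. Deviations of a sample from its group mean moved with the GC content of each gene's longest transcript in 5 of the 6 samples. Spearman's rho across genes, which are not independent, was 0.61, 0.02 and -0.52 in PD replicates 1 to 3 and -0.64, 0.46 and 0.54 in DMSO replicates 1 to 3. Summed FPKM of 6 macrophage and leukocyte markers lay between 0.306 and 0.755 in PD and between 0.0728 and 0.113 in DMSO, with LYZ listed at 0 throughout and PTPRC at most 0.0142 FPKM; their part in the results was not tested.

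The question was how far PD altered the transcripts of these enzymes within 48 h. Of the 39 members 35 were tested, and 20 of them rose, while 14.3% of all genes tested rose. AGA was the member that fell, where 12.7% of all genes fell, and the other 14 did not pass, as 72.9% of all genes did not. At least 2-fold rises, which 2.84% of all genes made, were found for 10 members: GLA, CTSA, SMPD1, NEU1, CTSK, CTSD, CTSL, TPP1, GM2A and HEXA. No member was called 2-fold lower by limma, at an unadjusted p or by voom (0 in each). Of all 13579 genes 0.979% were in limma at the adjusted p, and 385 genes in voom. With shares this low, 0 among 35 members says little about them. GLA, CTSA, SMPD1, NEU1, CTSK and CTSD were called 2-fold higher in all 17 alternatives, while CTSL, TPP1, GM2A and HEXA had log2 fold changes of 0.95, 0.94, 0.92 and 0.90 when samples were scaled to equal totals, which still passed the test. Single samples also decided whether some of these reached 2-fold: HEXA had 0.98 without PD replicate 1, 0.97 without PD replicate 2 and just under 1.00 without DMSO replicate 1, GM2A had 0.97 without PD replicate 3 and 0.95 without DMSO replicate 1, and TPP1 had 0.96 without PD replicate 3. The median log2 fold change was 0.38 over the tested members and 0.00 over all genes tested. Members ranged from -0.42 for MAN2B1, which did not pass, to 1.77 for GLA. The 3 PD samples lay above the 3 DMSO samples for 21 tested members, where 22.5% of all genes tested did so, and below them for 3 members, where 21.9% did.

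**Figure D1:**
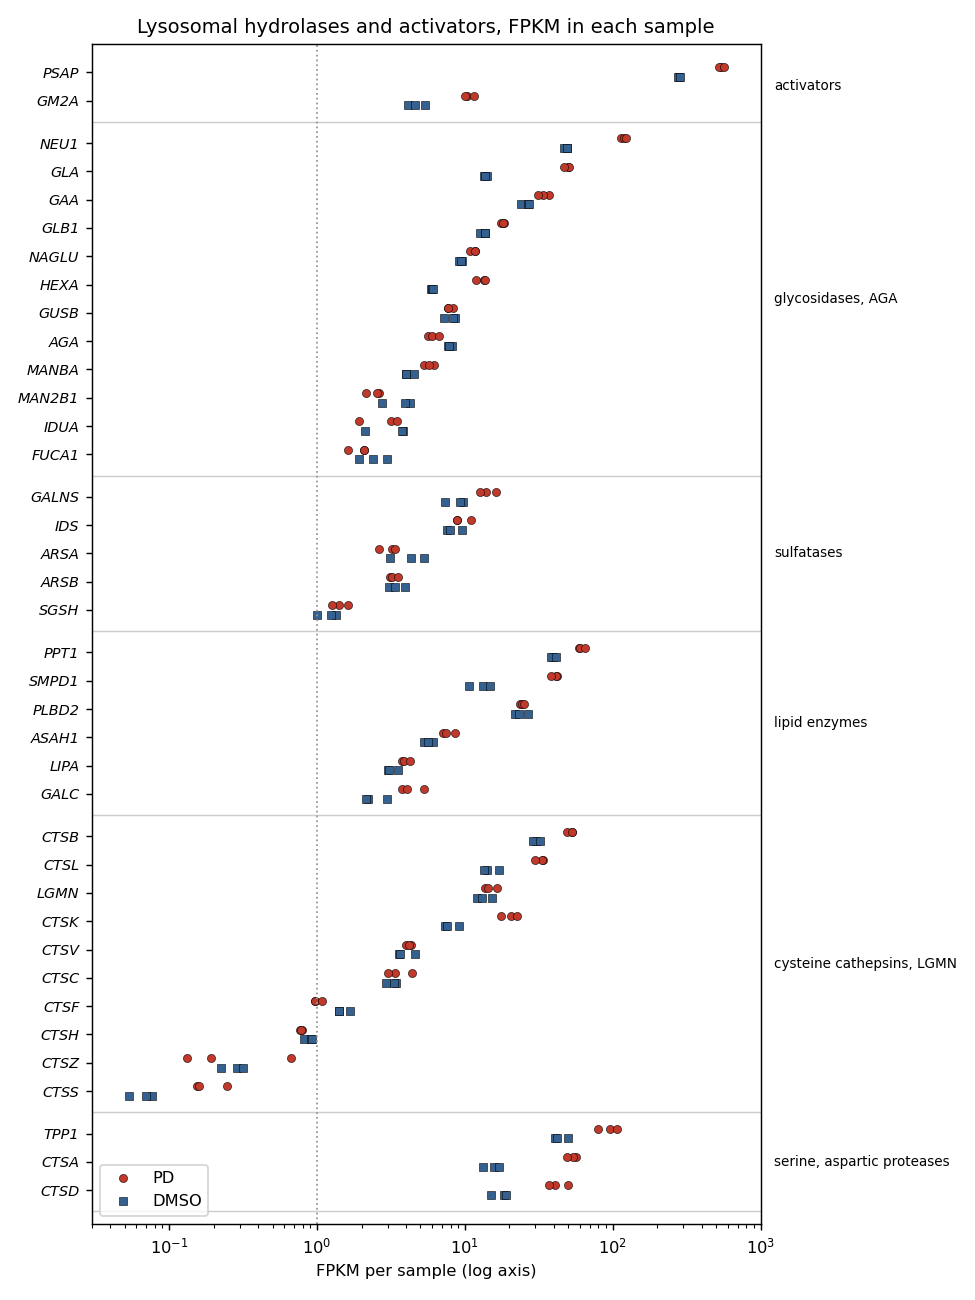
FPKM of 38 members in each of the 3 PD samples (circles) and 3 DMSO samples (squares), on a log axis, grouped by class and ordered by mean level; the dotted line marks 1 FPKM. PSAP lies at 276 FPKM or more in every sample, CTSH, CTSZ and CTSS lie under 1 FPKM in every sample, and CPVL, with 1 read in all, is not drawn.

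Most members that were abundant by their mean over both groups rose. Of the 17 members with a mean of at least 10 FPKM over all samples 15 rose, with a median log2 fold change of 0.94, while 17.8% of all genes at that level rose. Of the 18 tested members under that level 5 rose, with a median of 0.09, while 12.6% of all such genes rose. LGMN and PLBD2 were the members at the higher level that did not pass. A rise in PD lifts the mean over all samples, so this level is not independent of the change. CTSK, GALNS and NAGLU reached 10 FPKM only through PD, averaging 7.985, 8.797 and 9.387 FPKM in DMSO. Summed over all members, FPKM were 1307, 1301 and 1346 in PD replicates 1 to 3, against 698, 689 and 713 in DMSO replicates 1 to 3. The sum was thus 1.88 times as high in PD, and 1.85 times without PSAP, which made up 41.1% of it in PD and 40.2% in DMSO. The sums of both groups did not overlap. No p is given for such a sum, because the members were chosen with earlier results of these data known.

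**Figure D2:**
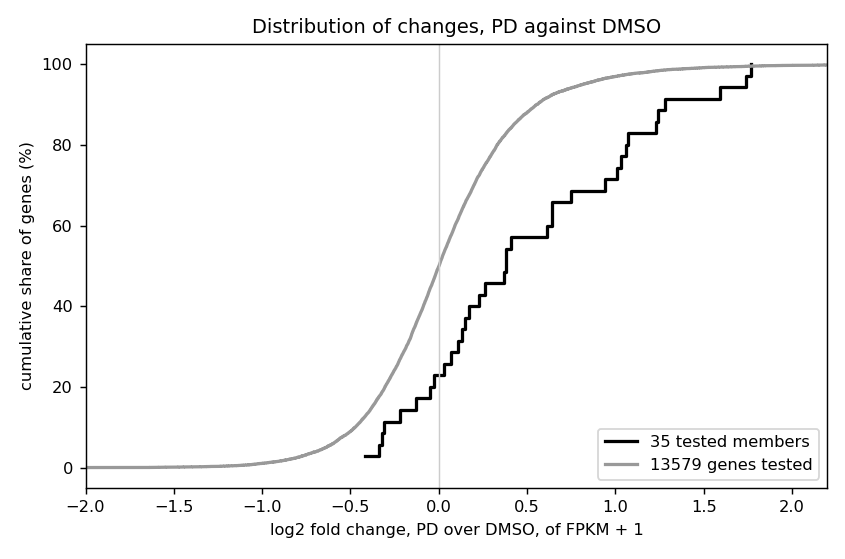
Cumulative share of genes (%) against the log2 fold change, PD over DMSO, of FPKM + 1, for the 35 tested members (black) and all 13579 genes tested (grey). The median of the members is 0.38 and that of all genes 0.00.

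RefSeq promoter windows, from 250 bases before to 50 after the start on GRCh38.p14, were at hand for 28 members and were searched on both strands for 3 motifs. The E-box CACGTG occurred in 7 of them (25%), and in 7.26% of all 35116 promoters. Each member counts with 1 window, while the 35116 are all windows of that length, not only those of genes tested, so the shares are of unlike sets. TCACGTGA, the core of the CLEAR element and itself an E-box, occurred in 4 members (14.3%), PLBD2, GALNS, GAA and CTSA, and in 0.98% of all promoters. TCATGTGA, the M-box that the same factors bind, occurred in PPT1, TPP1 and GALC and in 1% of all promoters. Of the 7 members with an E-box 5 rose (CTSA, CTSD, GAA, GALNS and NEU1), while PLBD2 and CTSF did not pass. Of the 21 without it 8 rose, 5 of them at least 2-fold, 1 fell, 9 did not pass and 3 were not tested. Over all genes tested 14.3% rose, and the share among all genes with an E-box was not computed. Whether members with and without an E-box differ was not tested. Members without a promoter window are in neither count. A match is only a stretch of letters, and binding was not measured. The 140 bases before the start are shown for the members called 2-fold higher that held a match, 5′ to 3′ on the strand of the gene, with matches in capitals, from chr6:31862822-31862961 (minus strand), chr11:1763928-1764067 (minus), chr20:45891195-45891334 (plus) and chr11:6619423-6619562 (minus).
NEU1: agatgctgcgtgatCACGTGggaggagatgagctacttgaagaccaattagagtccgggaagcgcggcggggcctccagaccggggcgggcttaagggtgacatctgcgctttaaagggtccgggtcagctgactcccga
CTSD: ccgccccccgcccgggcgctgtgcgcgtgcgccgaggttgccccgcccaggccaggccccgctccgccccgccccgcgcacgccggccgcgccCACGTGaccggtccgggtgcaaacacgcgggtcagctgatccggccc
CTSA: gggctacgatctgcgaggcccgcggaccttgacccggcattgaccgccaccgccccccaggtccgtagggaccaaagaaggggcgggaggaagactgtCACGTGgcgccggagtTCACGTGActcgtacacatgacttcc
TPP1: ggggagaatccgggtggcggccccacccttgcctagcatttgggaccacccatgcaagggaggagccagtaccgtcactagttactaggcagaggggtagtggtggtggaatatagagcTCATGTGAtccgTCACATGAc
The CTSA window holds an E-box 42 bases and a CLEAR core 26 bases before the start. The TPP1 window holds the M-box on both strands, 21 and 9 bases before the start.

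Both activators rose. PSAP encodes prosaposin, which is cut into the saposins that help enzymes degrade sphingolipids, and it was the most abundant member. Its FPKM were 536, 524 and 566 in PD replicates 1 to 3, against 283, 276 and 286 in DMSO replicates 1 to 3. The groups stood far apart, and the log2 fold change was 0.94 ± 0.09 (SE, adjusted p = 0.000661), just under 2-fold on that scale. Under quantile scaling it was 0.53. GM2A (chromosome 5, 151212150 to 151270440) encodes the protein that presents the ganglioside GM2 to hexosaminidase A. It had 10.3, 9.96 and 11.6 FPKM in PD, against 4.10, 4.63 and 5.35 FPKM in DMSO. All PD samples were higher, by 1.03 ± 0.11 on the log2 scale (adjusted p = 0.0011).

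Among the glycosidases and AGA 7 of 12 rose, 3 of them at least 2-fold, and AGA fell. Over all genes tested 14.3% rose, 2.84% at least 2-fold, and 12.7% fell. GLA (ENSG00000102393, chromosome X, 101397803 to 101408012 on GRCh38, minus strand) encodes alpha-galactosidase A, which removes galactose from globotriaosylceramide and is deficient in Fabry disease. It had 50.2, 50.8 and 46.9 FPKM in PD, against 14.1, 13.5 and 13.6 FPKM in DMSO. Its rise was the largest of all members, 1.77 ± 0.08 on the log2 scale (95% interval 1.59 to 1.95, adjusted p = 3.68e-05), and the samples within a group lay close together. NEU1 (chromosome 6, 31857659 to 31862906), the sialidase that removes sialic acid, had 114, 120 and 124 FPKM in PD, against 49.2, 46.8 and 49.2 FPKM in DMSO. It was the second most abundant member and its groups did not overlap (1.28 ± 0.08 on the log2 scale, adjusted p = 0.000147). HEXA (chromosome 15, 72340919 to 72376476) encodes the alpha subunit of hexosaminidase A, the enzyme that GM2A serves. It had 13.6, 13.7 and 11.9 FPKM in PD, against 5.89, 5.95 and 6.11 FPKM in DMSO, a log2 fold change of 1.01 ± 0.09 (adjusted p = 0.000511). The DMSO samples were nearly equal and the PD samples all lay above them.

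GLB1, MANBA, GAA and NAGLU rose by less, with log2 fold changes of 0.41, 0.38, 0.38 and 0.26. GLB1 encodes the beta-galactosidase that forms a complex with NEU1 and CTSA, and it averaged 18.1 ± 0.398 FPKM in PD and 13.4 ± 0.598 FPKM in DMSO (SD, n = 3 each). MANBA, which encodes beta-mannosidase, averaged 5.73 ± 0.449 FPKM in PD and 4.17 ± 0.293 FPKM in DMSO. GAA encodes the acid glucosidase that degrades glycogen and averaged 34.1 ± 3.11 FPKM in PD and 25.9 ± 1.73 FPKM in DMSO (adjusted p = 0.0282). NAGLU, which acts on heparan sulfate, averaged 11.4 ± 0.471 FPKM in PD and 9.39 ± 0.209 FPKM in DMSO (adjusted p = 0.0479). Except for GLB1, these calls depended on single samples. NAGLU passed in only 3 of the 17 alternatives and did not pass when any 1 of the 6 samples was left out (adjusted p between 0.0828 and 0.134). GAA did not pass when PD replicate 1, PD replicate 2 or any of the DMSO replicates was left out (0.0569 to 0.0898), and MANBA did not without PD replicate 2 or 3 or DMSO replicate 2 or 3 (0.0502 to 0.0959). GLB1 passed whichever sample was left out. Under equal totals the median of all genes tested lay at -0.10, and this scaling left MANBA, GAA and NAGLU without a call (adjusted p = 0.0549, 0.124 and 0.219).

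AGA encodes the amidase that splits the bond between sugar chain and asparagine. It had 5.67, 5.99 and 6.66 FPKM in PD, against 7.67, 8.13 and 7.77 FPKM in DMSO, a log2 fold change of -0.32 ± 0.09 (adjusted p = 0.035). All PD samples were lower, but the fall did not pass when PD replicate 1, PD replicate 2 or any of the DMSO replicates was left out (adjusted p between 0.0504 and 0.121). MAN2B1, the lysosomal alpha-mannosidase, had 2.63, 2.56 and 2.16 FPKM in PD, against 2.75, 4.27 and 3.94 FPKM in DMSO. The groups did not overlap and the test was not passed (-0.42 ± 0.15, adjusted p = 0.0724), but it was without DMSO replicate 1 (-0.57, adjusted p = 0.0157), with voom on reads (0.0313) and after GC correction (0.00864), the alternatives ranging from 0.00459 to 0.208. GUSB, FUCA1 and IDUA, enzymes that remove glucuronic acid, fucose and iduronic acid, had log2 fold changes of -0.03, -0.22 and -0.13 with overlapping groups. The 95% interval of GUSB ran from -0.24 to 0.19, that of FUCA1 from -0.56 to 0.11 and that of IDUA from -0.66 to 0.40. GUSB has expressed pseudogene copies, such as GUSBP9 and GUSBP1, so its reads may be split among them.

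**Figure D3:**
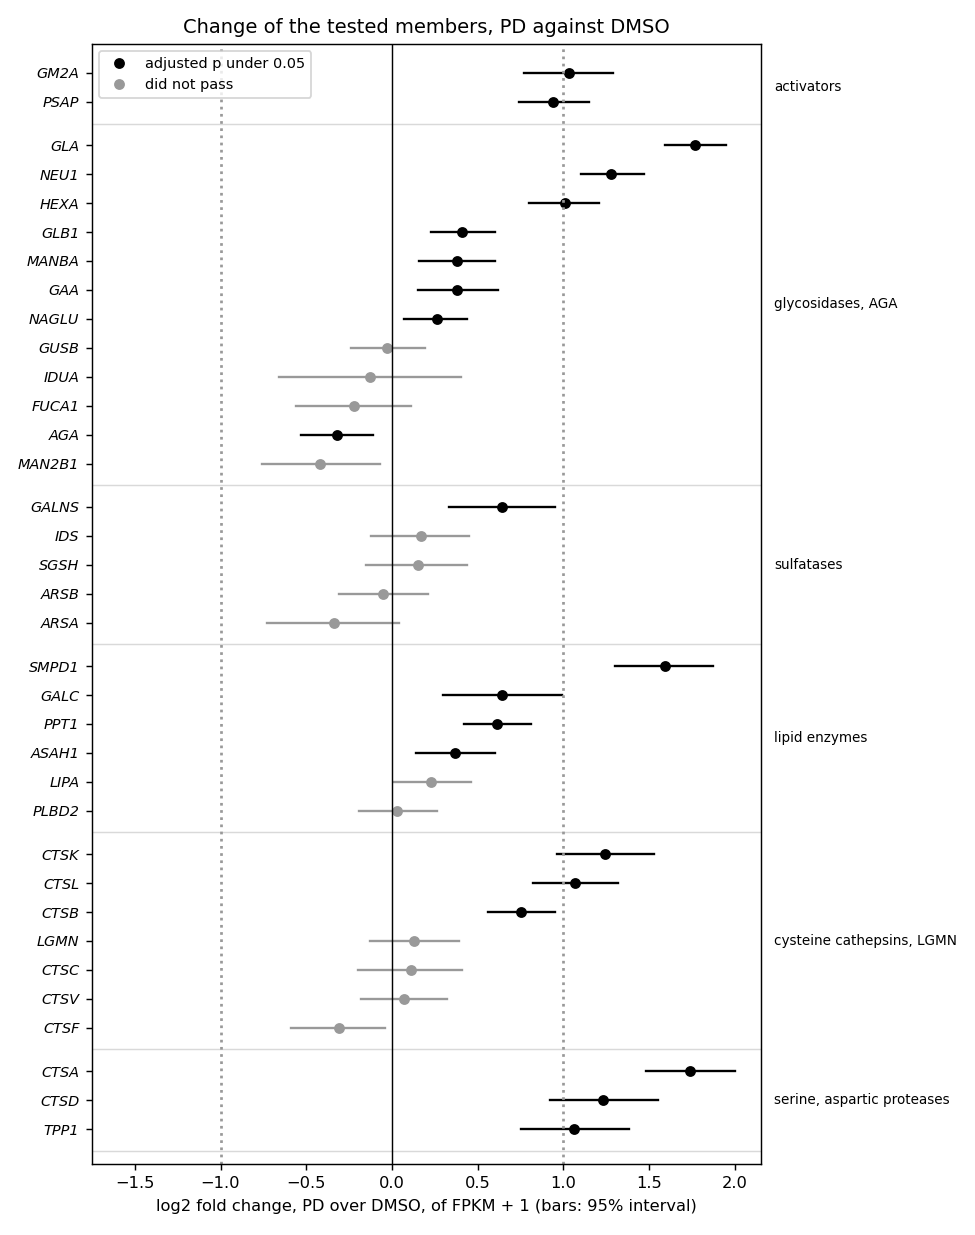
Log2 fold change, PD over DMSO, of FPKM + 1 for the 35 tested members by class, with 95% intervals from limma; black points passed the test, grey ones did not, and dotted lines mark a 2-fold change. Serine and aspartic proteases and activators all lie right of 0.9, and most sulfatases lie near 0.

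Of the 5 sulfatases, which remove sulfate from glycosaminoglycans and sulfolipids, GALNS rose and the other 4 did not pass. Over all genes tested 14.3% rose and 72.9% did not pass, so 1 rise among 5 genes is not unusual. GALNS acts on keratan and chondroitin sulfate. It averaged 14.3 ± 1.76 FPKM in PD and 8.80 ± 1.29 FPKM in DMSO (SD, n = 3 each), a log2 fold change of 0.64 ± 0.13 (adjusted p = 0.0124), with the groups apart. IDS and SGSH, which act on heparan sulfate, stood at 0.17 and 0.15, and ARSB at -0.05. ARSA, the sulfatase for sulfatides, had 3.22, 2.64 and 3.37 FPKM in PD, against 3.11, 4.32 and 5.27 FPKM in DMSO. It was lowest among the DMSO samples in replicate 1, within the range of PD, and without that sample it passed downward (-0.51, adjusted p = 0.034), against -0.34 with it (adjusted p = 0.165). Summed FPKM of the 5 sulfatases averaged 31.6 ± 1.3 in PD and 26.1 ± 1.06 in DMSO, the smallest ratio of sums among the 6 classes (1.21).

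Of the 6 lipid-degrading enzymes 4 rose, while 14.3% of all genes tested rose. SMPD1 (chromosome 11, 6390431 to 6394998) encodes acid sphingomyelinase, which turns sphingomyelin into ceramide and is deficient in Niemann-Pick disease types A and B. It had 41.7, 41.4 and 38.1 FPKM in PD, against 10.7, 13.2 and 14.8 FPKM in DMSO. The lowest PD sample lay far above the highest DMSO sample, and the log2 fold change was 1.59 ± 0.12 (adjusted p = 0.000339). PPT1, the thioesterase that removes fatty acids from proteins, had 59.5, 59.9 and 64.7 FPKM in PD, against 39.5, 38.3 and 41.5 FPKM in DMSO. All PD samples were higher, by 0.61 ± 0.08 on the log2 scale (adjusted p = 0.00255). On the opposite strand PPT1 shares 23.4% of its exon bases with CAP1, which averaged 57.6 FPKM in PD and 40.7 FPKM in DMSO. The libraries were stranded, but no source used here says whether counting used the strand, so the reads of the pair may be mixed.

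GALC, which degrades galactosylceramide, averaged 4.38 ± 0.830 FPKM in PD and 2.44 ± 0.465 FPKM in DMSO (SD, n = 3 each), a log2 fold change of 0.64 ± 0.15 (adjusted p = 0.0184). ASAH1, the acid ceramidase, averaged 7.67 ± 0.770 FPKM in PD and 5.69 ± 0.387 FPKM in DMSO (0.37 ± 0.10, adjusted p = 0.0313). The groups were apart for both, yet GALC and ASAH1 lost their call without PD replicate 2 (adjusted p = 0.0504 and 0.0821), without DMSO replicate 2 (0.0625 and 0.109) or without DMSO replicate 3 (0.0651 and 0.0939), and ASAH1 also without PD replicate 3 (0.0652). LIPA, the acid lipase that frees cholesterol from its esters, had 3.77, 3.85 and 4.24 FPKM in PD, against 3.54, 3.03 and 3.07 FPKM in DMSO. Its groups were apart by a narrow margin and the test was not passed (0.23 ± 0.10, adjusted p = 0.116). PLBD2, a phospholipase B-like protein with a CLEAR core in its promoter, stood at 24.3 ± 0.803 FPKM in PD and 23.8 ± 2.46 FPKM in DMSO. Its log2 fold change was 0.03 (95% interval -0.19 to 0.26) and turned negative under equal totals and quantile scaling.

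All 3 tested serine and aspartic proteases rose at least 2-fold, where 2.84% of all genes tested did. Their summed FPKM had the highest ratio between the groups among the classes, 2.46 (190 ± 4.44 in PD and 77.2 ± 2.06 in DMSO). CTSA (chromosome 20, 45890144 to 45898820) encodes the serine carboxypeptidase known as protective protein, which stabilises NEU1 and GLB1. It had 56.1, 54.3 and 49.3 FPKM in PD, against 13.2, 15.7 and 17.0 FPKM in DMSO, a log2 fold change of 1.74 ± 0.11 (adjusted p = 0.000161). The groups were widely apart. DMSO replicate 1 and PD replicate 3 were the lowest samples of their groups for CTSA, SMPD1 and CTSD, whose GC contents were 60.7%, 60.2% and 64%, and also for HEXA and CTSK, at 47% and 46.3%. CTSA shares 17.7% of its exon bases with NEURL2 on the opposite strand, which averaged 1.09 FPKM in PD and 0.909 FPKM in DMSO. CTSD (chromosome 11, 1752752 to 1764573), an aspartic endopeptidase, had 49.7, 40.7 and 37.3 FPKM in PD, against 15.1, 18.3 and 19.0 FPKM in DMSO (1.23 ± 0.13, adjusted p = 0.00121). PD samples spread more than DMSO samples and all lay above them. CTSD shares 41.7% of its exon bases with AC068580.4, annotated as protein-coding on the same strand, which stood at 0.0587 FPKM in PD and 0.0774 FPKM in DMSO.

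TPP1 (chromosome 11, 6612763 to 6619485) removes tripeptides from protein ends and is deficient in a form of neuronal ceroid lipofuscinosis. It had 79.4, 95.7 and 107 FPKM in PD, against 50.05, 40.8 and 42.2 FPKM in DMSO. PD replicate 3 was highest and all PD samples exceeded DMSO (1.06 ± 0.14 on the log2 scale, adjusted p = 0.0021). TPP1 and SMPD1 lie 218 kb apart on chromosome 11. CPVL, a carboxypeptidase known from macrophages, had 1 read in PD replicate 2 and was at 0 in the other 5 samples, where a count of 0 allows up to 3 reads.

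**Figure D4:**
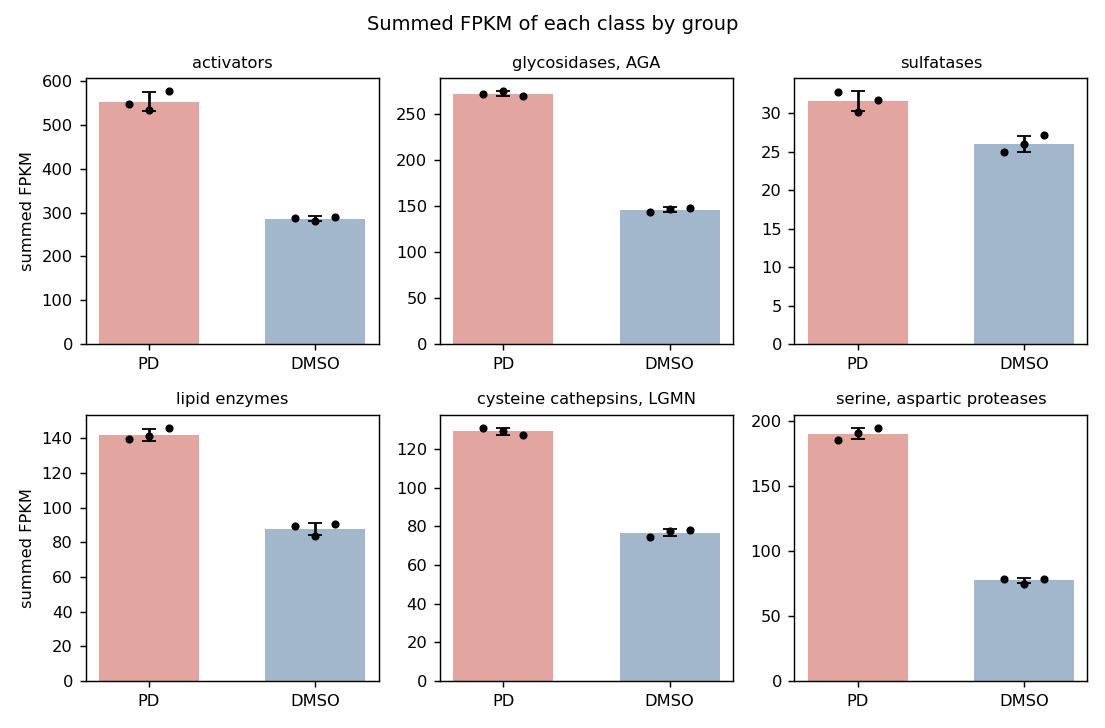
Summed FPKM of each class in PD (left bars) and DMSO (right bars); bars are means, error bars SD of 3 samples and points the samples, with axes starting at 0. The ratio of the means runs from 1.21 for sulfatases to 2.46 for serine and aspartic proteases.

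Cysteine cathepsins are papain-like proteases, and legumain cuts after asparagine and helps to activate them. Of the 7 tested genes CTSK, CTSL and CTSB rose and the other 4 did not pass. Over all genes tested 14.3% rose and 72.9% did not pass. CTSK (chromosome 1, 150796208 to 150808323), the collagen-degrading cathepsin of osteoclasts, had 20.6, 22.5 and 17.6 FPKM in PD, against 7.31, 9.07 and 7.57 FPKM in DMSO. All PD samples lay well above DMSO (1.24 ± 0.12, adjusted p = 0.000814). CTSL (chromosome 9, 87725519 to 87731393), an endopeptidase found in most cells, had 33.7, 33.2 and 29.7 FPKM in PD, against 14.1, 16.9 and 13.5 FPKM in DMSO (1.07 ± 0.11, adjusted p = 0.000895). Here too the groups did not overlap. CTSB, which acts as endopeptidase and dipeptidase, had 53.4, 49.4 and 52.9 FPKM in PD, against 30.4, 28.9 and 32.1 FPKM in DMSO (0.75 ± 0.08, adjusted p = 0.00125). It had the highest level of the class in both groups.

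CTSV, the closest relative of CTSL, stood at 3.99, 4.31 and 4.20 FPKM in PD, against 4.57, 3.58 and 3.65 FPKM in DMSO. Its groups overlapped, and the log2 fold change of 0.07 had a 95% interval of -0.18 to 0.32, which lies below that of CTSL (0.82 to 1.32). The difference between these paralogs was not tested, and reads from stretches they share may be split. LGMN averaged 14.8 ± 1.38 FPKM in PD and 13.5 ± 1.59 FPKM in DMSO (0.13, 95% interval -0.13 to 0.39; SD, n = 3 each). CTSC, the dipeptidyl peptidase that activates granule proteases of leukocytes, stood at 0.11, and both it and LGMN had overlapping groups. CTSF had 0.967, 0.967 and 1.08 FPKM in PD, against 1.42, 1.66 and 1.41 FPKM in DMSO, all PD samples lower, without passing (-0.31 ± 0.12, adjusted p = 0.0829). CTSF passed downward with equal totals (-0.38, adjusted p = 0.0461), without the variance trend (0.0402) and with array weights (0.0191), and voom gave -0.57 without passing (0.066). It reached 1 FPKM in every DMSO sample but not in every PD sample, so CTSF met the filter only through the group where it was higher. Its downward passes are therefore no independent support for a fall.

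The remaining cathepsins did not reach the level for testing. CTSH lay between 0.762 and 0.795 FPKM in PD and between 0.818 and 0.923 FPKM in DMSO, and CTSZ between 0.131 and 0.671 FPKM in PD and between 0.222 and 0.316 FPKM in DMSO. CTSS, a cathepsin of antigen-presenting cells, lay between 0.154 and 0.246 FPKM in PD and between 0.0536 and 0.0770 FPKM in DMSO, which are 4 to 16 reads per sample. All PD samples lay below DMSO for CTSH and above it for CTSS, and CTSZ overlapped. CTSS begins 30.3 kb from CTSK, which was far more abundant in every sample. GAA and SGSH are also close, 86.8 kb apart on chromosome 17, and of these GAA rose while SGSH stood at 1.44 ± 0.175 FPKM in PD and 1.20 ± 0.179 FPKM in DMSO (SD, n = 3 each) and did not pass.

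Other lysosomal hydrolases were taken from a list of 28 further genes. Their median change was smaller than that of the members, but both lists were chosen with earlier results of these data known. Of 18 tested 8 rose, while 14.3% of all genes tested rose, and the other 10 did not pass. The list median was 0.26, against 0.00 over all genes tested. None fell in limma (0), where 12.7% of all genes did, with 3 lower at an unadjusted p under 0.05 and 2 in voom. The carboxypeptidase SCPEP1 averaged 15.9 ± 1.14 FPKM in PD and 7.58 ± 0.468 FPKM in DMSO (0.98 ± 0.09, adjusted p = 0.000681; SD, n = 3 each). The phospholipase PLA2G15 rose by 0.67 on the log2 scale and the nuclease DNASE2 by 0.66 (adjusted p = 0.00586 and 0.00284).

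Genes that tag the enzymes and sort them to lysosomes rose in 7 of 12 tested cases, and SORT1 fell, with a list median of 0.40. Over all genes tested 14.3% rose and 12.7% fell, with a median of 0.00. M6PR, the small mannose 6-phosphate receptor, averaged 51.9 ± 1.66 FPKM in PD and 21.8 ± 0.581 FPKM in DMSO (1.21 ± 0.08, adjusted p = 0.000153). IGF2R, the large receptor for the same tag, averaged 73.5 ± 6.82 FPKM in PD and 39.7 ± 2.07 FPKM in DMSO (0.87 ± 0.10, adjusted p = 0.0013; SD, n = 3 each). The groups of both receptors were apart. NAGPA, which uncovers the tag, rose by 0.97 ± 0.12 on the log2 scale (adjusted p = 0.00213). GNPTAB, which encodes the transferase that starts the tag and was chosen with its value known, stood at 0.06 (adjusted p = 0.662). SORT1, a sorting receptor that carries some lysosomal proteins without the tag, had 9.58, 9.97 and 10.2 FPKM in PD, against 18.9, 16.5 and 16.9 FPKM in DMSO (-0.76 ± 0.09, adjusted p = 0.00139). It was thus lower in every PD sample, opposite to both mannose 6-phosphate receptors.

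**Figure D5:**
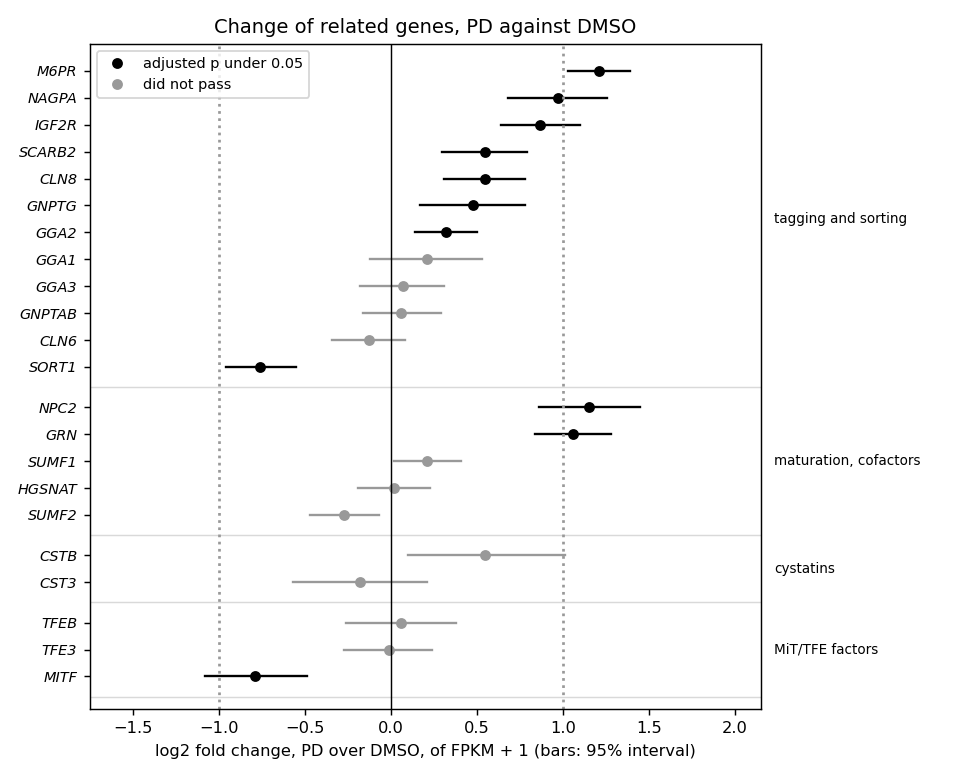
Log2 fold change, PD over DMSO, of FPKM + 1 with 95% intervals for the tested genes of 4 related lists (tagging and sorting, maturation and cofactors, inhibitors of cathepsins, MiT/TFE factors); black points passed the test, grey ones did not, and dotted lines mark a 2-fold change. M6PR, NPC2 and GRN lie right of the 2-fold line, and SORT1 and MITF lie furthest left.

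Of 5 tested genes for maturation and cofactors NPC2 and GRN rose, with a list median of 0.21, while 14.3% of all genes tested rose. NPC2, a soluble carrier that hands cholesterol to the lysosomal membrane, averaged 51.3 ± 7.26 FPKM in PD and 22.5 ± 2.22 FPKM in DMSO (1.15 ± 0.13, adjusted p = 0.00121; SD, n = 3 each). GRN, the precursor of lysosomal granulins, averaged 70.9 ± 2.37 FPKM in PD and 33.5 ± 3.00 FPKM in DMSO (1.06 ± 0.09, adjusted p = 0.000531). Among inhibitors of cathepsins only CSTB and CST3 were tested out of 12. CSTB had 33.7, 28.8 and 30.5 FPKM in PD, against 14.8, 23.7 and 25.6 FPKM in DMSO, with DMSO replicate 1 far below the other samples. Thus 0 of 2 passed in limma, as 72.9% of all genes did not, while 1 was higher at an unadjusted p under 0.05 and 1 in voom (CSTB 0.55, adjusted p = 0.0722; CST3 -0.18, adjusted p = 0.45).

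Of the 3 tested MiT/TFE factors 0 rose in limma, at an unadjusted p under 0.05 or in voom, and MITF fell. Over all genes tested 14.3% rose and 12.7% fell in limma, so 0 rising among 3 genes is not unusual. TFEB averaged 2.11 ± 0.256 FPKM in PD and 2.00 ± 0.397 FPKM in DMSO, and TFE3 averaged 18.2 ± 1.85 FPKM in PD and 18.4 ± 1.77 FPKM in DMSO (SD, n = 3 each). Their log2 fold changes were 0.06 (95% interval -0.26 to 0.38) and -0.01 (-0.27 to 0.24), and over the alternatives they ran from -0.05 to 0.13 for TFEB and from -0.13 to 0.04 for TFE3. MITF was lower in every PD sample, at 0.598, 0.553 and 0.595 FPKM, against 2.03, 1.54 and 1.65 FPKM in DMSO (-0.79 ± 0.13, adjusted p = 0.00488), and the alternatives gave -1.57 to -0.71. MITF reached 1 FPKM only in the DMSO samples, so it was tested only through the group where it was higher. TFEC lay at or under 0.0527 FPKM in all samples and was not tested. These levels do not measure where the factors were in the cell.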

How the data were processed

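Messenger RNA of 3 PD and 3 DMSO samples was prepared with a stranded Illumina kit and sequenced in pairs on a HiSeq instrument, per the labels' protocols. FPKM values per gene and sample, with gene lengths, are as the authors deposited them; how reads were aligned and counted is not stated there. GRCm38 and mm10, both mouse, are the builds in the submitters' processing notes, whereas all 58735 identifiers and positions match human GENCODE release 29 (GRCh38). Columns were matched to samples by group prefix and title number. FPKM times length was a whole multiple of 1 step per sample (100% of values, tolerance 0.01), which gave reads. The library size implied by that step was 0.947 to 1.00 times the reads over genes in PD and 1.03 to 1.10 times in DMSO, so the values were also scaled to equal totals. Log2(FPKM + 1) of genes with at least 1 FPKM in at least 3 samples was fitted without covariates in limma 3.58.1 (R 4.3.3; moderated two-sided test with a variance trend), and p-values were adjusted by Benjamini-Hochberg over all 13579 genes. The fit was tested on simulated data. The alternatives changed the pseudocount, filter, scaling, variance model, replicate block and samples, or ran voom with TMM factors on the reads. A GC correction (loess, span 0.3) was added after seeing the data. Members and lists were chosen with earlier results of these data known. Values in every sample are given for members called 2-fold, the member that fell and the 5 most abundant; further members have them where their groups or calls called for it. Related lists name up to 4 genes with the largest changes, or up to 2 by level where fewer than 2 passed, all MiT/TFE factors, and GNPTAB; some genes that this rule would name are not reported here.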

Additional observations from a re-analysis of the deposited data

How the results depend on the processing

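The count of members that rose was 20, against 15 to 21 under the other settings that kept all samples and had no replicate block, 19 without DMSO replicate 1 and PD replicate 3 together, and 15 to 18 when a replicate was left out. These were not always the same members: LIPA joined them with array weights and GC correction, and NAGLU left with GC correction. AGA was the member that fell; the count was 0 with no filter, 2 with equal totals, without the variance trend, with voom and after GC correction, 3 without DMSO replicate 1 and PD replicate 3 together, and 4 with array weights. Leaving out a replicate gave 0 to 2 that fell and 8 to 10 called 2-fold higher; equal totals gave 6. With the replicate number as a block 13 members rose and 0 fell, and over all genes 1089 rose and 755 fell. The deviations of same-numbered samples from their group means correlated at -0.39, 0.17 and -0.16. These deviations also moved with GC content, so the correlations cannot show whether the numbers pair samples. The main fit had no block.

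Over all genes 1144 to 1877 rose and 859 to 1657 fell when a replicate was left out. A pseudocount of 0.1 called 626 genes 2-fold higher and 336 lower, and voom 658 and 385. A minimum mean of 5 FPKM gave 1254 that rose and 960 that fell, with 227 and 77 of 2-fold size, among fewer genes tested. With no filter 1075 fell. Equal totals gave 2813 that fell, 208 of them 2-fold, and put the share of rises among changed genes at 33.4%, against 52.9% as deposited. Array weights gave 3189 that rose and 3112 that fell, and GC correction 2631 that fell. The cause of these differences was not tested. In the 250 bases before the start alone, TCATGTGA was in 1 member's promoter. The members under 1 FPKM had 96 reads or fewer per sample and were not tested.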
